A study of Mus musculus with 21 samples.

Results

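The genes of the MCM helicase and of replication licensing were followed through mouse liver of 4 genotypes in 3 conditions. The 10 members were taken by gene symbol from the 22520 genes of the deposited table: Mcm2, Mcm3, Mcm4, Mcm5, Mcm6, Mcm7, Mcm10, Cdc6, Cdt1 and Gmnn, each with 1 row. DKO mice were Ezh1-/- and carried Ezh2fl/fl with Alb-Cre, which deletes the floxed gene in cells that use the albumin promoter, chiefly hepatocytes. E2KO mice were Ezh2fl/fl with Alb-Cre, E1KO mice were Ezh1-/- without Cre, and the WT animals carried Ezh2fl/fl with no Cre, all on a mixed 129SV::FVB/N::C57BL/6 background. Each genotype was taken at 3 months of age after injection of CCl4 (carbon tetrachloride, a toxin that hepatocytes activate through the cytochrome P450 Cyp2e1), at 8 months and at 2 months. The sources used here do not state the CCl4 schedule, and no untreated RNA of 3 months was used, so CCl4 and the difference in age cannot be told apart. Libraries were mRNA-seq of whole liver, and the table holds 1 FPKM value (fragments scaled by transcript length and by the library's total) per gene and group, which makes 12 columns. By their titles the groups had 3 replicates, and those of 8 months 2, so each value may stand for several samples, with no spread between them. Cells in which Alb-Cre does not act keep Ezh2 in E2KO and DKO, and Ezh2 was not measured by cell type here.

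Before a cell copies its DNA, the origin recognition complex and the loaders Cdc6 and Cdt1 place the ring of Mcm2 to Mcm7 on origins, which is called licensing. Geminin, the product of Gmnn, binds Cdt1 and prevents a second round of loading in the same cycle, and Mcm10 joins later, when the loaded helicase is switched on. Transcription of these genes is a known output of the E2F factors in late G1. Adult hepatocytes are mostly out of the cycle and re-enter it after loss of liver tissue or toxic injury.

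The start-site windows of the members are shown because most members moved together and E2F sites are the element they are known for. RefSeq start-site windows of 250 bases before to 50 bases after the start (build GRCm38.p6) were matched by symbol for 8 members, which had 9 windows. The E2F motif was searched as TTTCCCGC, TTTCGCGC, TTTGCCGC or TTTGGCGC on both strands. It was found in the windows of 6 of the 8 members, Mcm3, Mcm5, Mcm6, Mcm7 (1 of its 2 windows), Cdc6 and Cdt1, against 2.26% of all 32851 windows of this length. CCAAT, the box bound by NF-Y, was found on either strand in 6 of the 8, all but Cdc6 and Cdt1, against 37.4% of all windows. The mitotic element CHR, searched as TTTGAA, was found in 1 (Mcm2), against 17.9% of all windows. Windows of Mcm5 (chr8:75109259-75109558, plus strand) and Mcm6 (chr1:128359656-128359955, minus strand), the helicase genes with the widest change, of the loader gene Cdc6 (chr11:98907901-98908200, plus strand) and of Mcm10 (chr2:5012742-5013041, minus strand), which went the other way, are printed 5′ to 3′ with E2F matches in capitals. The capitals in Mcm5 and the first run in Mcm6 are overlapping matches on opposite strands. Mcm10 holds no full match, and its window closes on the letters TTTGGCG.
Mcm5: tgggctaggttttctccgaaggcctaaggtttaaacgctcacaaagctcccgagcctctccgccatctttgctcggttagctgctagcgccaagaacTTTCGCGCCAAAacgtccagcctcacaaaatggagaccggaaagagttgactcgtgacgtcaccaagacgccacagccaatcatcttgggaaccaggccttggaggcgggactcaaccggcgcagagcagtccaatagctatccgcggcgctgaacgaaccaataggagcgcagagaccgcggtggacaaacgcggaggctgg
Mcm6: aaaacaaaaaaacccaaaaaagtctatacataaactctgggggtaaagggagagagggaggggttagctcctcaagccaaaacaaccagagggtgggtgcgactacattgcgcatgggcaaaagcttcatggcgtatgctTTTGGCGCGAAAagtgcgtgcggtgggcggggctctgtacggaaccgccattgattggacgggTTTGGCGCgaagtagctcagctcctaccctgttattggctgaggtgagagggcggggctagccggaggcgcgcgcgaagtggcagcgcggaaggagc
Cdc6: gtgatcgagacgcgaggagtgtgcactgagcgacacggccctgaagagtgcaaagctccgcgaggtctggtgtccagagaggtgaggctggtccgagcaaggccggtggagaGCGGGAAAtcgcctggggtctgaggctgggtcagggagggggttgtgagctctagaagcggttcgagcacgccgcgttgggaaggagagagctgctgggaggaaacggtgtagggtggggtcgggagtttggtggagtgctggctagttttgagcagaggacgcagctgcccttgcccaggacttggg
Mcm10: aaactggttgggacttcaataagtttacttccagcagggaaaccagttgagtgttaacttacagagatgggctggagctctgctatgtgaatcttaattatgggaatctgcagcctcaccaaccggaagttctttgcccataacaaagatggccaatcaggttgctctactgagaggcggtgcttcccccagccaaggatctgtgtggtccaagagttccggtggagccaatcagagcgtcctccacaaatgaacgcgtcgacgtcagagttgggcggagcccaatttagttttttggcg

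Each column summed to between 531761 and 674119 FPKM, and the depth is unknown. Ezh1 RNA was 0.07 FPKM in DKO, 0.07 in E1KO and 2.38 in WT at 2 months, but 0.88 in the column labelled E1KO at 8 months, against 2.04 in WT of that age. Ezh2 RNA was 2.51 FPKM in DKO and 3.92 in E2KO with CCl4, against 5.68 in WT with CCl4, and 0.74 in DKO and 0.84 in E2KO at 2 months, against 1.11 in WT. At 8 months the DKO column, at 1.27 FPKM, lay above WT at 0.91, and a gene total does not tell transcripts with the floxed part from those without it. The 8-month column labelled E1KO also summed to 291.63 FPKM over 6 genes of skeletal muscle, where the other columns had at most 1.66. The hepatocyte markers found in the table (5 of 9) summed to 6652 to 12598 FPKM with CCl4, 14993 to 19491 at 8 months and 14503 to 19563 at 2 months.

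CCl4 against 2 months asks how licensing genes behave in injured liver. Of the 10 members, 9 rose with CCl4 and Mcm10 fell, with the same direction in each genotype. With additive terms for genotype and condition, limma (Benjamini-Hochberg adjusted p under 0.05) called all 10: 9 higher, where 33.4% of the 11394 tested genes were called higher, and 1 lower, where 24.5% were called lower. In each of the 9 that rose, all 4 CCl4 columns lay above all 8 untreated columns (22.9% of tested genes did so), and for Mcm10 all 4 lay below (16.9%). A gene was tested if it reached 1 FPKM in 2 columns or more. All 10 members passed, but Mcm5 and Cdc6 passed through the CCl4 columns alone, which favours a call of higher for them. The other 8 pass without those columns. In whole liver RNA, a change in the number of cells that carry a transcript and a change in RNA per cell cannot be told apart.

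Among the helicase subunits, Mcm6 and Mcm5 had the widest change. Mcm6 was 19.75 FPKM in DKO, 45.52 in E2KO, 32.21 in E1KO and 44.22 in WT with CCl4, against 0.83, 0.89, 1.72 and 1.15 in the 2-month DKO, E2KO, E1KO and WT columns. At 8 months it was 1.64 FPKM in DKO, 0.22 in E2KO, 0.78 in E1KO and 1.76 in WT. The E2KO value of 0.22 was the lowest Mcm6 value of the 12, and the CCl4 columns stood far from all others. On the log2(FPKM+1) scale Mcm6 rose by 4.03 (SE 0.31, limma adjusted p = 3.53e-05), rank 8 of 11394 tested genes by size. Mcm5 was 14.17 FPKM in DKO, 31.8 in E2KO, 20.8 in E1KO and 26.73 in WT with CCl4, against 0.45, 0.5, 0.49 and 0.5 in the 2-month columns of the same genotypes. At 8 months it was 0.79 FPKM in DKO, 0.53 in E2KO, 0.61 in E1KO and 0.77 in WT. Mcm5 was the scarcest subunit in all 4 genotypes at 2 months and one of the more abundant after CCl4. Its rise was 3.98 (SE 0.18, adjusted p = 8.03e-06), and the plain FPKM ratio was 31.5 in DKO, 63.6 in E2KO, 42.4 in E1KO and 53.5 in WT.

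Mcm2 was 9.95 FPKM in DKO, 17.8 in E2KO, 13.37 in E1KO and 13.79 in WT with CCl4, against 0.61, 0.63, 0.8 and 0.65 at 2 months. Mcm3 was 14.15, 26.94, 21.09 and 19.47 FPKM in DKO, E2KO, E1KO and WT with CCl4, against 1.27, 1.33, 1.7 and 1.68 at 2 months. Both had their lowest CCl4 value in DKO and their highest in E2KO, with E1KO and WT close together between them. The rise over the genotypes was 3.11 for Mcm2 (SE 0.15, limma adjusted p = 8.11e-06) and 3.07 for Mcm3 (SE 0.17, adjusted p = 1.41e-05). Mcm4 was 7.43 FPKM in DKO, 15.36 in E2KO, 12.27 in E1KO and 11.47 in WT with CCl4, against 0.63, 0.78, 0.7 and 0.74 at 2 months, a rise of 2.84 (SE 0.17, limma adjusted p = 1.58e-05). It was the scarcest subunit in each CCl4 column. Mcm7 was 16.69 FPKM in DKO, 40.4 in E2KO, 28.43 in E1KO and 32.94 in WT with CCl4, against 3.21, 4.25, 4.23 and 4.09 at 2 months. It had the highest level of the subunits before injury and the smallest rise, 2.57 (SE 0.15, adjusted p = 1.42e-05), with FPKM ratios of 5.20 in DKO to 9.51 in E2KO. The 8-month levels of these 4 subunits were all far below the CCl4 levels. Those of Mcm2 and Mcm4 were above their 2-month levels in all 4 genotypes, most clearly in DKO and WT. Mcm3 was above its 2-month level in DKO and WT only, and Mcm7 in DKO and E2KO only. In DKO, E2KO, E1KO and WT of 8 months, Mcm2 was 1.08, 0.76, 0.81 and 1.17 FPKM, and Mcm3 was 1.7, 1.12, 1.36 and 2.0 FPKM. In the same order Mcm4 was 1.24, 0.88, 0.84 and 1.37 FPKM, and Mcm7 was 3.6, 4.95, 4.1 and 4.04 FPKM.

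**Figure D1:**
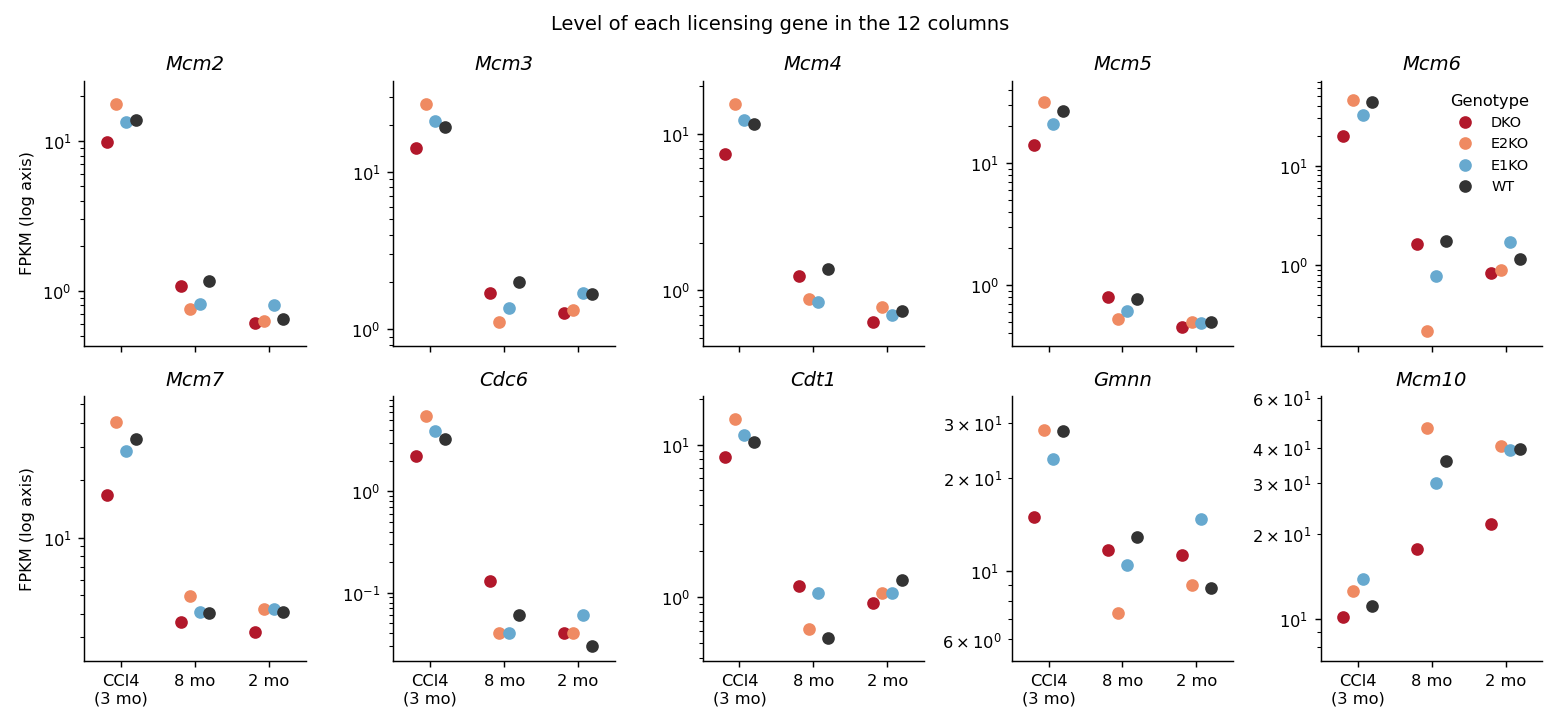
FPKM (log axis, a separate range for each gene) of the 10 members in the CCl4, 8-month and 2-month columns, 1 point per genotype (DKO, E2KO, E1KO and WT), each point a single deposited value with no error. The 4 CCl4 points lie above the 8 untreated points in 9 panels and below them for Mcm10.

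The genes of both loaders rose as well. Cdc6, the ATPase that recruits Cdt1 with the helicase, was 2.21 FPKM in DKO, 5.54 in E2KO, 3.89 in E1KO and 3.3 in WT with CCl4, against 0.04, 0.04, 0.06 and 0.03 at 2 months. The 2-month values are a few steps of the 0.01 to which the table is rounded, so the size of the ratio is uncertain. On the log2(FPKM+1) scale, which understates the change of a gene this low, Cdc6 rose by 2.14 (SE 0.17, limma adjusted p = 3.86e-05). With a pseudocount of 0.1 its rise was 4.68, above the 4.14 of Mcm2, so its place among the members depends on the pseudocount. Cdt1, which carries the helicase to the origin, was 8.22 FPKM in DKO, 14.62 in E2KO, 11.6 in E1KO and 10.42 in WT with CCl4, against 0.91, 1.06, 1.07 and 1.3 at 2 months. Its rise was 2.53 (SE 0.17, adjusted p = 2.49e-05), with the order of genotypes seen for Cdc6: E2KO highest, then E1KO, WT and DKO. At 8 months Cdc6 was 0.13 FPKM in DKO, 0.04 in E2KO, 0.04 in E1KO and 0.06 in WT, and Cdt1 was 1.18, 0.62, 1.07 and 0.54 FPKM in those genotypes.

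Gmnn, the inhibitor of Cdt1, moved least among the genes that rose. It was 14.93 FPKM in DKO, 28.49 in E2KO, 23.02 in E1KO and 28.21 in WT with CCl4, against 11.26, 9.02, 14.68 and 8.78 at 2 months and 11.65, 7.28, 10.42 and 12.87 at 8 months. The lowest CCl4 value (DKO) was only just above the highest untreated one (E1KO at 2 months). The rise was 1.03 (SE 0.24, limma adjusted p = 0.00597). Gmnn was well expressed before injury while Cdt1 was near 1 FPKM: the ratio of Gmnn to Cdt1, both per length, was 1.82 in DKO, 1.95 in E2KO, 1.98 in E1KO and 2.71 in WT with CCl4, against 12.4, 8.51, 13.7 and 6.75 at 2 months.

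Mcm10 stood apart from the rest in level and in direction. It was 10.16 FPKM in DKO, 12.57 in E2KO, 13.9 in E1KO and 11.09 in WT with CCl4, against 21.57, 40.46, 39.32 and 39.49 at 2 months and 17.68, 46.8, 30.21 and 36.02 at 8 months. In untreated liver it was the most abundant member in every column, and DKO was the lowest genotype in each condition. Its fall passed the fold in all 4 genotypes, as did that of 1.81% of tested genes. Mcm10 fell by 1.45 over the 4 genotypes (SE 0.16, limma adjusted p = 0.000158). By the plain ratio the CCl4 columns held 0.471 of the 2-month level in DKO, 0.311 in E2KO, 0.354 in E1KO and 0.281 in WT. The RefSeq table places Mcm10 between Ucma and Optn with no gene overlapping it. The submitters' notes name build mm9, so the gene model behind the deposited Mcm10 values may differ, which was not tested. Over the 12 columns its Pearson correlation with the mean log2(FPKM+1) of Mcm2 to Mcm7 was -0.85, against 0.90 for Gmnn and 0.99 or more for Mcm2, Mcm3, Mcm4, Mcm5, Mcm6 and Cdc6; the subunits are part of that mean. The genes most like Mcm10, a comparison chosen after its values were seen, were Mtus1 (r = 0.98) and Lap3, a leucine aminopeptidase (r = 0.98), both over 12 columns.

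The response was then set out genotype by genotype, with no test since each has 1 value per condition. A gene counted as past the fold when log2(FPKM+1) differed by at least 1. In DKO 8 members were past it upward (8.46% of tested genes) and 1 downward (3.96%), and in E2KO 9 upward (10.1%) and 1 downward (6.03%). In E1KO 8 were past it upward (11%) and 1 downward (7.07%), and in WT 9 upward (8.8%) and 1 downward (5.23%). The gene that missed the fold in DKO (0.38) and E1KO (0.62) was Gmnn, which stood at 1.56 in E2KO and 1.58 in WT. The median response of Mcm2 to Mcm7 was 2.75 in DKO, 3.56 in E2KO, 3.01 in E1KO and 3.05 in WT, beside 0.08, 0.07, 0.05 and 0.06 over all tested genes. Summed over the 6 subunits, FPKM with CCl4 was 11.7 times the 2-month sum in DKO, 21.2 times in E2KO, 13.3 times in E1KO and 16.9 times in WT.

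**Figure D2:**
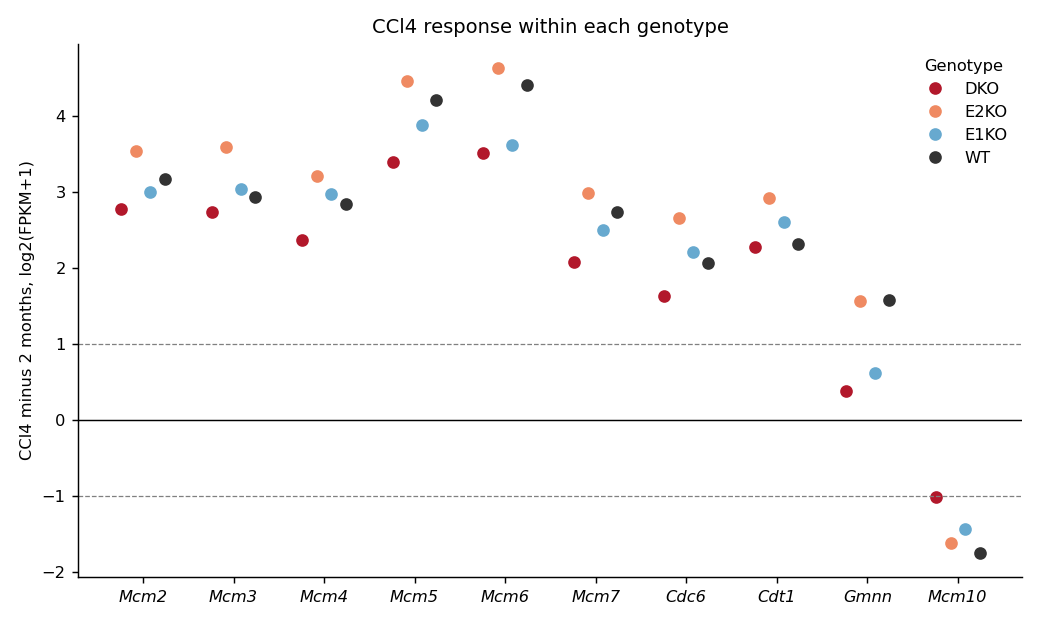
Difference in log2(FPKM+1) between CCl4 and 2 months (vertical axis) for each member, 1 point per genotype and no error; dashed lines mark a difference of 1 in either direction. DKO is the lowest point for all 9 genes that rose, and Gmnn lies under the upper line in DKO (0.38) and E1KO (0.62).

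On the log2(FPKM+1) scale DKO had the smallest response of the 4 genotypes for all 9 genes that rose. By the plain FPKM ratio, Mcm6 rose less in E1KO (18.7) than in DKO (23.8), and Cdt1 less in WT (8.02) than in DKO (9.03). DKO had the lowest CCl4 level for all 10 members, as it had for 38.4% of all tested genes. With CCl4, DKO held 44.7% of the WT level for Mcm6, 50.7% for Mcm7, 52.9% for Gmnn, 53.0% for Mcm5, 64.8% for Mcm4, 66.97% for Cdc6, 72.2% for Mcm2, 72.7% for Mcm3 and 78.9% for Cdt1. A low DKO response was common among injury-induced genes: of the 448 genes (3.93% of those tested) past the fold upward in all 4 genotypes, 63.6% responded least in DKO, and 8 of the 8 members among them did. In limma, with DKO given its own condition terms, none of the 10 members had a CCl4 response that differed from that of the other 3 genotypes (smallest adjusted p = 0.398; 0.219% of all tested genes were called higher and 0.0702% lower). At an unadjusted p under 0.05 there were 3 members, Mcm5, Mcm7 and Cdc6, beside 9.19% of all tested genes. The estimates were -0.79 for Mcm5 (95% interval -1.44 to -0.13), -0.67 for Mcm7 (-1.17 to -0.16), -0.68 for Cdc6 (-1.32 to -0.04) and -0.87 for Gmnn (-2.0 to 0.25). The interval for Mcm10, 0.58 (-0.14 to 1.30), also took in 0.

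Single values of some hepatocyte, stromal, neutrophil and cholangiocyte markers also lay apart in the DKO column. Cyp2e1, the P450 that activates CCl4, was 3857 FPKM in DKO with CCl4, against 386.1 in E2KO, 151.1 in E1KO and 463.7 in WT with CCl4. At 2 months it was 4759 in DKO, 5883 in E2KO, 5724 in E1KO and 5359 in WT. Cyp3a11, another hepatocyte P450, was 3877 FPKM in DKO, against 2392 in E2KO, 1845 in E1KO and 1578 in WT with CCl4. The 5 hepatocyte markers summed to 12598 FPKM in DKO with CCl4, against 7980 in E2KO, 6652 in E1KO and 6996 in WT. Without these P450 genes, left out after their values were seen, the sum was 4865 in DKO, against 5202 in E2KO, 4656 in E1KO and 4955 in WT, so the higher DKO sum came from the P450 genes alone. The 8 stellate cell and myofibroblast markers, all of them higher with CCl4 over the genotypes, summed to 126.1 FPKM in DKO, 168.0 in E2KO, 279.3 in E1KO and 174.1 in WT with CCl4. The low DKO sum lay in the contractile genes Acta2 (6.98 FPKM in DKO, against 37.56 in WT) and Tagln (19.08, against 63.51 in WT). Without them, again chosen after the values were seen, the sum was 100.1 in DKO, 80.3 in E2KO, 108.0 in E1KO and 73.04 in WT. The collagen gene Col3a1 was highest in DKO (47.65, against 29.13 in WT), as it already was at 2 months (17.28, against 5.72 in WT). The collagen genes Col1a1 and Col1a2 were highest in E1KO instead (23.44 and 26.63, against 17.52 and 22.25 in DKO). With CCl4 the neutrophil markers also had their highest sum in DKO (54.86 FPKM, against 21 in E2KO, 35.17 in E1KO and 14.01 in WT). So did the cholangiocyte and progenitor markers (697.8 FPKM, against 318.8 in E2KO, 651.2 in E1KO and 405.9 in WT). Of these, Cldn7 was 6.92 FPKM in DKO, against 0.45 in WT, and at 2 months 1.92, against 0.2 in WT. In limma, Tagln passed for a smaller CCl4 response in DKO than in the other 3 genotypes (adjusted p = 0.0471), as did 0.0702% of all tested genes. Cldn7 (limma adjusted p = 0.0549), Acta2 (0.0676), Cyp2e1 (0.173), Cyp3a11 (0.45) and Col3a1 (0.698) did not pass for a different response in either direction. The part of these differences in the DKO licensing values was not tested.

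**Figure D3:**
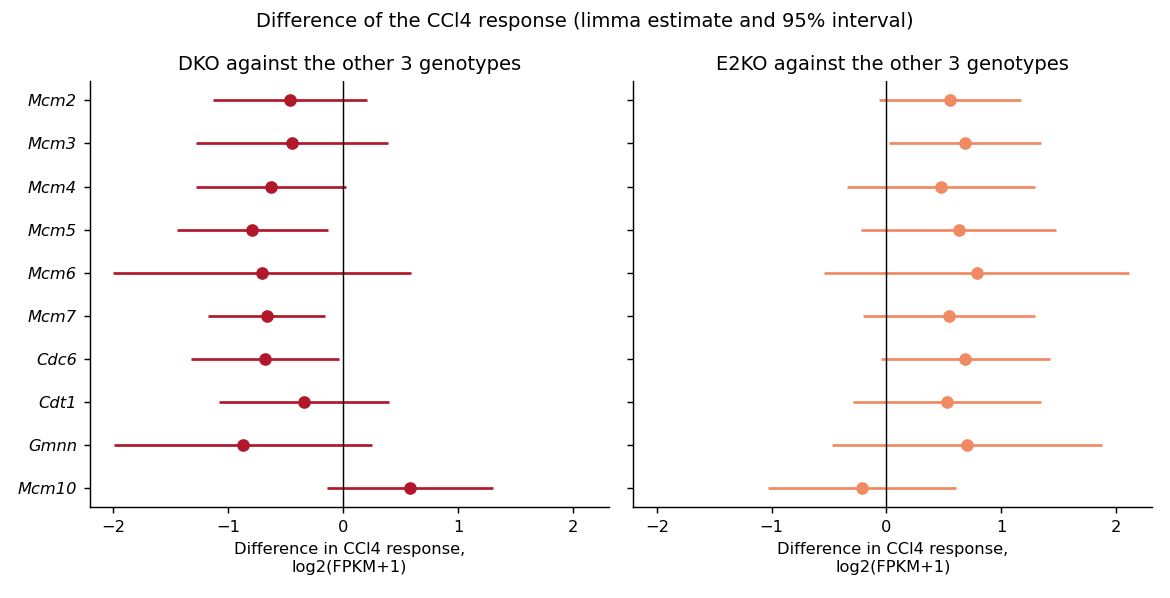
limma estimate (point) and 95% interval (line) of the CCl4 response of DKO (left) and of E2KO (right) minus that of the other 3 genotypes, in log2(FPKM+1), for each member. No member passed adjustment over all genes; the DKO interval lies below 0 for Mcm5, Mcm7 and Cdc6, and the E2KO interval lies above 0 for Mcm3.

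E2KO had the highest CCl4 level of the 4 genotypes for all 9 genes that rose, as it had for 20.8% of all tested genes. It stood at 168% of WT for Cdc6, 140% for Cdt1, 138% for Mcm3, 134% for Mcm4, 129% for Mcm2, 123% for Mcm7, 119% for Mcm5, 103% for Mcm6 and 101% for Gmnn. Among the 448 genes past the fold upward in all 4 genotypes, E2KO had the highest CCl4 column for 14.1%, and for 8 of the 8 members among them. No member passed for a different E2KO response in limma (adjusted p = 1 for all 10, with 0% of all genes called in either direction). At an unadjusted p under 0.05 there was 1 member, beside 3.16% of all tested genes: Mcm3, with a difference of 0.68 (95% interval 0.02 to 1.35). For E1KO and for WT against the other 3 genotypes, limma called 0 members, and 0 had an unadjusted p under 0.05, beside 2.79% and 1.82% of all tested genes. Over all tested genes, limma called 0% for E1KO in either direction, and 0% higher and 0.0176% lower for WT.

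The order of genotypes was not that of the proliferation genes Mki67, Top2a, Ccnb1 and Cdk1, which mark cells through S phase into mitosis. All 4 were highest in WT with CCl4, as 26.2% of all tested genes were, and lowest in DKO. Only Cdk1 of the 4 passes the filter without the CCl4 columns. Mki67 was 2.71 FPKM in DKO, 5.6 in E2KO, 5.62 in E1KO and 9.83 in WT, and Ccnb1, the mitotic cyclin, was 5.35, 11.24, 14.33 and 24.09 FPKM in DKO, E2KO, E1KO and WT. E2KO held 57.0% of WT for Mki67, 71.9% for Top2a, 46.7% for Ccnb1 and 63.3% for Cdk1, while none of the 9 licensing genes that rose was under 100% of WT in that column. The mean FPKM of Mcm2 to Mcm7 divided by that of these 4 genes was 2.32 in DKO, 2.17 in E2KO, 1.62 in E1KO and 1.09 in WT with CCl4. The difference between the groups of genes was not tested. Other replication genes were divided: of the 62 tested, 24 were highest in E2KO and 34 in WT with CCl4, and 54 were lowest in DKO. A list of 9 tested E2f and cyclin genes also held Rb1, Rbl1 and Cdkn1a, which are neither. Of the 9, 5 were highest in E2KO and 4 in WT, beside 20.8% and 26.2% of all tested genes. The 5 included E2f1 (6.38 FPKM in DKO, 13.73 in E2KO, 9.33 in E1KO and 10.89 in WT). They also included Rb1, which differed little between the CCl4 columns (1.97 to 2.3 FPKM). The 4 included Cdkn1a and Ccna2, the S-phase cyclin (8.12, 20.16, 18.91 and 28.59 FPKM in DKO, E2KO, E1KO and WT).

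**Figure D4:**
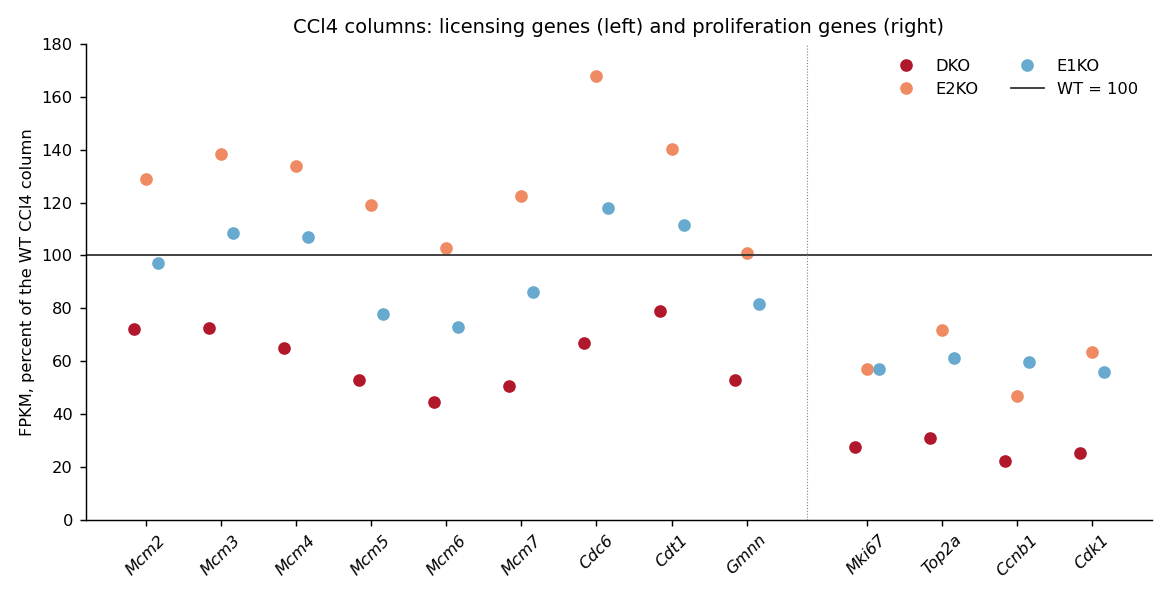
FPKM in the CCl4 columns of DKO, E2KO and E1KO as a percent of the WT CCl4 column (vertical axis, from 0), for the 9 licensing genes that rose and for 4 proliferation genes, each point a ratio of 2 single values with no error. E2KO lies at 101% to 168% for the licensing genes and at 46.7% to 71.9% for the proliferation genes.

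The make-up of the helicase transcripts changed together with the level. FPKM is per length, so subunits can be set side by side within a column. Mcm7 made up 20.3% to 22.7% of the Mcm2 to Mcm7 sum in the CCl4 columns, against 35.8% to 58.5% in the 8 untreated columns. The share of Mcm5 was 16.2% to 18.0% with CCl4 and 5.08% to 7.86% untreated, and that of Mcm6 was 24.0% to 29.8% with CCl4 and 2.60% to 17.8% untreated. For these 3 subunits the ranges did not overlap, whereas those of Mcm2, Mcm3 and Mcm4 did. Mcm2 held 9.28% to 12.1% with CCl4 and 7.38% to 10.7% untreated, Mcm3 held 13.1% to 17.2% and 13.2% to 19.1%, and Mcm4 held 7.72% to 9.57% and 7.26% to 12.3%. The highest subunit was 2.66 times the lowest in DKO, 2.96 times in E2KO, 2.63 times in E1KO and 3.86 times in WT with CCl4, against 4.56 to 22.5 times in the untreated columns. Levels under 1 FPKM weigh on the untreated ratios, the largest of which rests on the 0.22 FPKM of Mcm6 in E2KO at 8 months. The make-up with CCl4 also varied between genotypes. Mcm6 held 29.8% of the sum in WT and 24.0% in DKO, and Mcm3 held 13.1% in WT and 17.2% in DKO. The sums ran from 82.14 FPKM in DKO to 177.8 in E2KO.

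**Figure D5:**
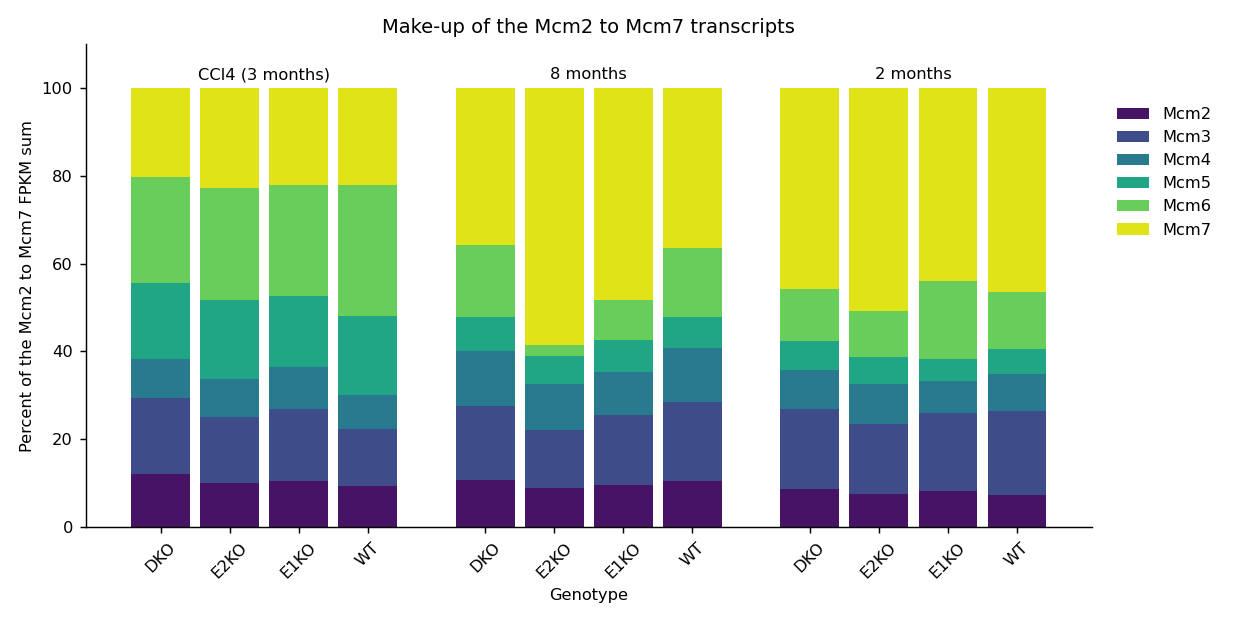
Percent of the summed FPKM of Mcm2 to Mcm7 held by each subunit (stacked to 100) in the 12 columns, by condition and, within a condition, by genotype, with no error. Mcm7 takes 35.8% to 58.5% of the sum in untreated columns and 20.3% to 22.7% with CCl4.

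No member was called for age or for genotype. For 8 against 2 months limma called 0 of the 10 members, with 0 at an unadjusted p under 0.05, where 2.7% of tested genes were called higher and 1.59% lower and 22.2% had an unadjusted p under 0.05. The estimates ran from -0.18 to 0.27, and the Mcm2 to Mcm7 sum stayed within 7 to 11.11 FPKM over the 8 untreated columns. Over the 3 conditions DKO against WT called 0 members (1.81% of genes higher and 0.816% lower), although all 10 estimates were below 0, with 2 members at an unadjusted p under 0.05 beside 18.9% of all tested genes. These were Mcm10 (-0.65, 95% interval -1.08 to -0.21, limma adjusted p = 0.119) and Mcm7 (-0.45, interval -0.83 to -0.06, adjusted p = 0.2). Without the CCl4 columns, an alternative chosen after seeing the data, the estimate was -0.91 for Mcm10 (limma adjusted p = 0.147) and -0.20 for Mcm7 (adjusted p = 0.499). Mcm10 in DKO was 54.6% of WT at 2 months, 49.1% at 8 months and 91.6% with CCl4. Single untreated values lay further apart at low levels: at 8 months Mcm6 in E2KO was 12.5% and Cdt1 in DKO 219% of WT. E2KO against WT (0% of genes called) and E1KO against WT (0.0176% called higher, 0% lower) called 0 members, with 0 at an unadjusted p under 0.05 beside 1.36% and 5.62% of all tested genes.

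The rest of the replication machinery was read from lists of 65 genes, of which 62 passed the filter. With CCl4, limma called 51 higher and 2 lower, with 9 not passing. Over all tested genes 33.4% were called higher and 24.5% lower. The median difference was 1.22 beside 0.07 over all tested genes. The filter had a part here too: 45 of the 62 pass it without the CCl4 columns, and of these 34 were called higher and 2 lower. The origin recognition complex, the platform for loading, was uneven. Orc6 rose by 1.68, Orc1, which passed the filter through the CCl4 columns alone, by 0.87 and Orc2 by 0.61, Orc4 fell by 0.36 (adjusted p = 0.0145), and the other 4 of the 8 genes in the list, among them Orc5 and the Mcm2 to Mcm7 partner Mcmbp, did not pass. Among the other MCM family genes, Mcm8, a helicase of recombination repair that also passed the filter through the CCl4 columns alone, rose by 1.25 and Mcm3ap, whose product binds Mcm3 and serves mRNA export, fell by 0.21. Mcmdc2, listed in the table under the older symbol 6030422M02Rik, had a difference of -0.22 without passing, and Mcm9 missed the filter.

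Downstream of loading all tested genes of 4 lists were called higher, as were 33.4% of all tested genes. Part of the listed genes passed the filter through the CCl4 columns alone, which favours such a call. All 10 tested firing factors rose (median 1.31), 5 of which, Cdc45, Gins3, Mtbp, Recql4 and Wdhd1, were such genes. The list was led by the GINS subunit Gins2 (3.09, limma adjusted p = 8.77e-05) and by Cdc45 (2.39, adjusted p = 2.49e-05), which join Mcm2 to Mcm7 in the active helicase. Gins2 was 7.85 FPKM in DKO, 18.19 in E2KO, 13.32 in E1KO and 21.46 in WT with CCl4, and at most 1.47 in any untreated column. The kinase gene Cdc7 and Ticrr, listed under 5730590G19Rik and at 0 in some untreated columns, missed the filter. All 9 fork polymerase and primase genes (median 1.38, Prim1 2.59), all 16 clamp, loader and fork genes (1.78, the ligase Lig1 3.01, the nuclease Fen1 2.65 and the sliding clamp Pcna 2.17) and all 6 nucleotide supply genes (1.60, the reductase subunit Rrm2 3.49) rose. Without the CCl4 columns, 5 of the 9, 13 of the 16 and 6 of the 6 pass the filter. Of 10 genes that control licensing by protein degradation, 6 rose and 0 fell, where 33.4% of all tested genes were called higher and 24.5% lower. Cdc20, an activator of the anaphase-promoting complex, rose by 3.82 and Dtl, which directs Cdt1 to destruction during S phase, by 1.95, and the ubiquitin ligase subunits Ddb1 and Skp2 rose by 0.89 and 0.85. Cdc20, Dtl and Skp2 passed the filter through the CCl4 columns alone. Of the 7 that pass without those columns, 3 were called higher and 4 were not called. On so few genes this cannot be told apart from the share over all tested genes. Fzr1 rose by 0.32 and the cullin gene Cul4b by 0.23 (limma adjusted p = 0.0306). The ubiquitin ligase subunit genes Cul4a, Cul1, Skp1a and Anapc1 did not pass. Of the 9 tested genes in the E2f and cyclin list, which also holds Rb1, Rbl1 and Cdkn1a, 8 rose. Of these, 3 (E2f2, Ccne2 and Rbl1) had likewise passed the filter only with the CCl4 columns. Rb1, the retinoblastoma gene, did not pass.

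Among genes that are no members, those whose pattern over the 12 columns was most like the mean of Mcm2 to Mcm7 were Hells, a chromatin remodeller, and Chaf1a, a histone chaperone subunit of the replication fork (both r = 0.998), then Dtl, Lig1, Fignl1, Uhrf1, Asf1b, Clspn and Pold1 (r = 0.994 to 0.997). These columns share libraries and one large CCl4 step, and 47 of 11394 tested genes, members included, had r of at least 0.99. Chaf1a, Dtl, Fignl1, Uhrf1, Clspn and Pold1 passed the filter through the CCl4 columns alone, which favours a high r. Whether Hells and Asf1b did so too is not given here. Hells, Fignl1, Uhrf1 and Asf1b averaged 0.33, 0.12, 0.21 and 0.29 FPKM over the untreated columns.

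Markers of other liver cells were mostly higher in the CCl4 columns. With CCl4, limma called 8 of 9 macrophage and Kupffer cell markers, 8 of 8 stellate cell and myofibroblast markers, 6 of 6 sinusoidal endothelial markers, 4 of 5 tested cholangiocyte and progenitor markers, 3 of 3 neutrophil markers and 1 of 2 tested B cell markers higher, and 2 of 5 hepatocyte markers and 1 of 4 tested erythroid markers lower. Over all tested genes 33.4% were called higher and 24.5% lower, which the B cell, hepatocyte and erythroid counts, on so few genes, cannot be told apart from. The macrophage, cholangiocyte, B cell and neutrophil lists include 2, 1, 1 and 1 genes that passed the filter through the CCl4 columns alone. Macrophage markers summed to 171.1 to 404.4 FPKM with CCl4, against 53.87 to 90.02 at 2 months, and stellate cell markers to 126.1 to 279.3, against 20.64 to 47.67 at 2 months. T cell markers stayed between 0.94 and 3.1 FPKM in sum in all 12 columns, and 0 of 5 passed the filter. E1KO had the highest macrophage (404.4) and stellate (279.3) sums with CCl4. Single genes weigh on these sums: Lyz2 alone was 233.9 FPKM in E1KO. Without Acta2 and Tagln the stellate sum was 108.0 in E1KO and 100.1 in DKO. Which cells carried the licensing transcripts was not tested.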

How the data were processed

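Liver mRNA-seq of 12 groups (4 genotypes in 3 conditions) was used, with groups taken from the source labels. Per the labels' protocols, TruSeq libraries were prepared with SuperScript II from 1 ug total RNA each. The authors deposited FPKM values rounded to 2 decimals, 1 column per group. How replicates were combined, and which filters were used, is not stated. The submitters' processing notes name CASAVA, TopHat, Cufflinks, BWA, SICER and HOMER on build mm9, with no role or version. The smallest value above 0 was 0.01 in each column, the rounding step, so reads were not recovered and no counting interval is given. The 9 ChIP-seq samples are not analysed here.

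Values were used as log2(FPKM+1). A gene needed 1 FPKM or more in 2 or more columns, which 11394 met. In R 4.3.3, lmFit and eBayes (trend) of limma 3.58.1 fitted additive genotype and condition terms, with 6 residual degrees of freedom, so that the spread is the departure of single values from additivity. A fit for each genotype with its own condition terms (4 residual degrees of freedom) compared its CCl4 response with that of the other 3. Tests were two-sided with Benjamini-Hochberg adjustment over all tested genes at 0.05, and were tested on simulated data. The members and lists were chosen with earlier results of these data known. Named genes were all members, at most 6 of each list by size of the CCl4 difference, and the 10 genes most correlated with Mcm2 to Mcm7, of which 1 is not reported here. The 5 or fewer genes of a list that stood apart from it were named after their values were seen. Older symbols were matched through RefSeq synonyms. Alternatives covered pseudocount, filter, scaling, untreated group and omitted columns. A rise limited to the CCl4 columns can pass the filter by itself, and FPKM is relative to each library's total.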

Additional observations from a re-analysis of the deposited data

How the results depend on the processing

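The CCl4 call of 9 members higher and 1 lower over the 4 genotypes was the same with a pseudocount of 0.1, no filter, a filter on the mean, median scaling, quantile normalization, 8 months as the untreated group, only the 2-month and CCl4 columns, without the 8-month E1KO column, and without each genotype in turn. The call of 0 members in the genotype comparisons of the CCl4 response and for 8 against 2 months also held under each alternative run. Without the 8-month E1KO column the 8-month estimates of Mcm6 (0.0155) and Gmnn (0.0219) changed sign, both far from the threshold. With the 8-month column as the untreated value, 0 members were past the fold downward in DKO, since Mcm10 then stood at -0.74. The response was smallest in DKO for 7 of the 9 rising genes with a pseudocount of 0.1, for 8 with quantile normalization and for 9 otherwise, an alternative chosen after seeing the data, as were the omitted columns in the genotype comparisons. The median response of Mcm2 to Mcm7 went up to 3.60 in DKO, 4.43 in E2KO, 3.93 in E1KO and 4.0 in WT with a pseudocount of 0.1, where values under 1 FPKM weigh more. No paired analysis was possible because the columns, 1 per group, carry no replicate numbers; columns of the same genotype are matched by the genotype term of each fit. Depth is unknown, so levels under 1 FPKM carry an unknown counting error.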
